A study of Mus musculus with 6 samples.

Results

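Endothelial cells line the blood and lymphatic vessels. In the embryonic kidney they form the peritubular and glomerular capillaries, the arteries that feed them, and the lymphatics that follow the larger vessels. ETS-family transcription factors (Erg, Fli1, Ets1) and SOX factors of the F group (Sox7, Sox17, Sox18) drive the endothelial programme, arteries add connexins, and lymphatic identity depends on the homeobox factor Prox1. Pericytes and smooth muscle wrap these vessels and descend largely from Foxd1-expressing stromal progenitors. Lineage tracing in mouse has also assigned some kidney endothelial cells to Foxd1-expressing progenitors.

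A set of 34 endothelial genes, chosen by name for their known use as markers of pan-endothelial, capillary, arterial, glomerular and lymphatic endothelium, was examined in RNA from whole mouse kidneys at E15.5 (embryonic day). Earlier results of these data were known when the set was chosen. All 34 were found by symbol among the 24749 genes of the table. Knockout kidneys carried the genotype Foxd1cre; Yapc/c;Tazc/c, in which a Foxd1-driven Cre recombinase deletes floxed Yap1 and Wwtr1 (the gene for TAZ) in the stromal lineage (3 libraries). Wild-type kidneys were Cre negative (3 libraries), and the labels do not say whether they carried floxed alleles. Both groups were of mixed strain. The labels also do not say how many embryos or litters stand behind a library, so p-values reflect only the scatter among these libraries, and that scatter may be technical. Endothelial cells were not isolated, so every value sums over all cell types of the organ, and fewer endothelial cells cannot be told apart from less RNA per cell.

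Values are FPKM (sequenced fragments divided by transcript length and by a scaled library size), a level per length that can be compared between genes. Depth, approximated from the lowest values, was 12700000 to 15500000 fragments per library, and 19704 to 20013 genes had a value above 0. Because the values carried a common median scaling, this depth is a scaled size and may differ from the number of fragments sequenced. Wwtr1 fell to 12.9 ± 0.635 FPKM in knockout kidneys, against 18.8 ± 1.26 FPKM in wild-type kidneys (SD, n = 3 each; limma adjusted p = 0.0235). With equal FPKM sums per library, with replicate number as a block, or without knockout library 1, 2 or 3 or wild-type library 2, this call did not hold (limma adjusted p between 0.0516 and 0.117). Yap1 measured 45.4 ± 2.94 FPKM in knockout and 51.0 ± 4.95 FPKM in wild-type kidneys (SD, n = 3 each; limma adjusted p = 0.378), and Foxd1 4.50 ± 0.617 and 7.64 ± 1.31 FPKM (limma adjusted p = 0.0886). Wild-type library 3 stood apart. The summed level of 6 nerve and chromaffin cell genes, among them Th and Dbh, was 73.9 FPKM there, against 5.51 to 7.62 FPKM in the 3 knockout libraries and 5.66 to 5.91 FPKM in the other wild-type libraries.

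Start regions of 4 members are shown because these had the smallest p among the 13 members with a single window in the RefSeq promoter table. Each window runs from 250 bases before to 50 bases after a start annotated in RefSeq on GRCm38.p6, written 5′ to 3′ on the gene's own strand. For Mmrn1 and Gja5 that start lies well inside the gene limits given below, which come from another annotation, and not at their 5′ end. Capitals mark GGAAG, the core bound by ETS factors, on either strand. The windows are chr6:60944067-60944366 (plus strand) for Mmrn1, chr2:84425217-84425516 (minus strand) for Calcrl, chr3:97032152-97032451 (plus strand) for Gja5 and chr16:18776597-18776896 (plus strand) for Cldn5.
Mmrn1: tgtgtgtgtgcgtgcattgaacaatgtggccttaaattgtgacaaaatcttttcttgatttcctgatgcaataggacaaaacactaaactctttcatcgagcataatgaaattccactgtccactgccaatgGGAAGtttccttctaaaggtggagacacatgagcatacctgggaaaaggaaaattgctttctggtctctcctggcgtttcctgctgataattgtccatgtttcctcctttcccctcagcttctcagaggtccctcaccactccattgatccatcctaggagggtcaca
Calcrl: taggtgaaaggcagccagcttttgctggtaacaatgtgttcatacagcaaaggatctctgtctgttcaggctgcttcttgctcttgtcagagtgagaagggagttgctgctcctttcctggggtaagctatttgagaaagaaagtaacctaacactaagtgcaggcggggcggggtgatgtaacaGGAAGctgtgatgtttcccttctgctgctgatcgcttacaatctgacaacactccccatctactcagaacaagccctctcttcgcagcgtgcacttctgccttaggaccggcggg
Gja5: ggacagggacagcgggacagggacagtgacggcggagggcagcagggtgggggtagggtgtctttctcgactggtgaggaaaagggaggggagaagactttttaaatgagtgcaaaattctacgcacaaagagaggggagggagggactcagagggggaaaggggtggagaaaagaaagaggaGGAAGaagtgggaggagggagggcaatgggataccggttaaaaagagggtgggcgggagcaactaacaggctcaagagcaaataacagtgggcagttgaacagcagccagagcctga
Cldn5: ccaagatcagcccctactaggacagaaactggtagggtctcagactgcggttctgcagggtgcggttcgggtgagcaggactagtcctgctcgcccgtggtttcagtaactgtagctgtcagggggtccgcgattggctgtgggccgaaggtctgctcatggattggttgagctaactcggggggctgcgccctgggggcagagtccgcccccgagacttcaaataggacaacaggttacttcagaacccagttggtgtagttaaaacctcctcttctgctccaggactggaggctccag
The Mmrn1, Calcrl and Gja5 windows each hold 1 GGAAG and the Cldn5 window holds 0. A match was present in 12 of the 13 member windows and in 71.4% of all 32851 windows of this length, so the letters are common everywhere. The SOX core ACAAT was found, on either strand, in 7 of the 13 windows and in 31.0% of all windows, with 3 matches in Mmrn1, 2 in Calcrl and 0 in Gja5 and Cldn5. The TEAD core GGAATG, the site through which YAP and TAZ act, was found in 2 of the 13 and in 14.7% of all windows, and in 0 of the 4 shown. GGAAG and GGAATG share their first 4 letters and cannot start at the same base, but matches on opposite strands may overlap. A match is a description of the letters and not a bound site.

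No endothelial gene of the set passed the test between genotypes, and most log2 changes were small. Of the 34 members 33 averaged 0.5 FPKM or more over all libraries and were tested, and Prox1 lay under that minimum. Of the 33 tested, limma called 0 higher and 0 lower at a Benjamini-Hochberg adjusted p under 0.05 over all genes tested. Over all 16899 genes 124 were called, which is 0.734%, with 0.130% higher and 0.604% lower. Unadjusted p-values under 0.05 were found for 10 members against 16.1% of all genes. Of these, 5 members (15.2%) were higher and 5 (15.2%) lower, beside 9.14% and 6.94% of all genes. Libraries of the 2 genotypes did not overlap for 14 members, beside 24.3% of all genes. Knockout libraries were the higher ones for 6 members (18.2%) and the lower ones for 8 (24.2%), beside 12.5% and 11.8% of all genes. Without wild-type library 3, limma again called 0 members, and 6 were higher and 4 lower with an unadjusted p under 0.05, beside 11.1% and 8.21% of all genes. These shares describe the set and were not tested. Log2 changes, knockout minus wild-type on the log2(FPKM + 1) scale, had a median of -0.01 over the members and 0.00 over all genes tested, and ran between -0.53 and 0.40. The 95% confidence interval lay within 0.5 of 0 for 24 of the 33 members, and for 78.1% of all genes tested. The summed level of all 34 members was 632 to 658 FPKM in knockout and 625 to 643 FPKM in wild-type libraries, and these ranges overlap.

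**Figure D1:**
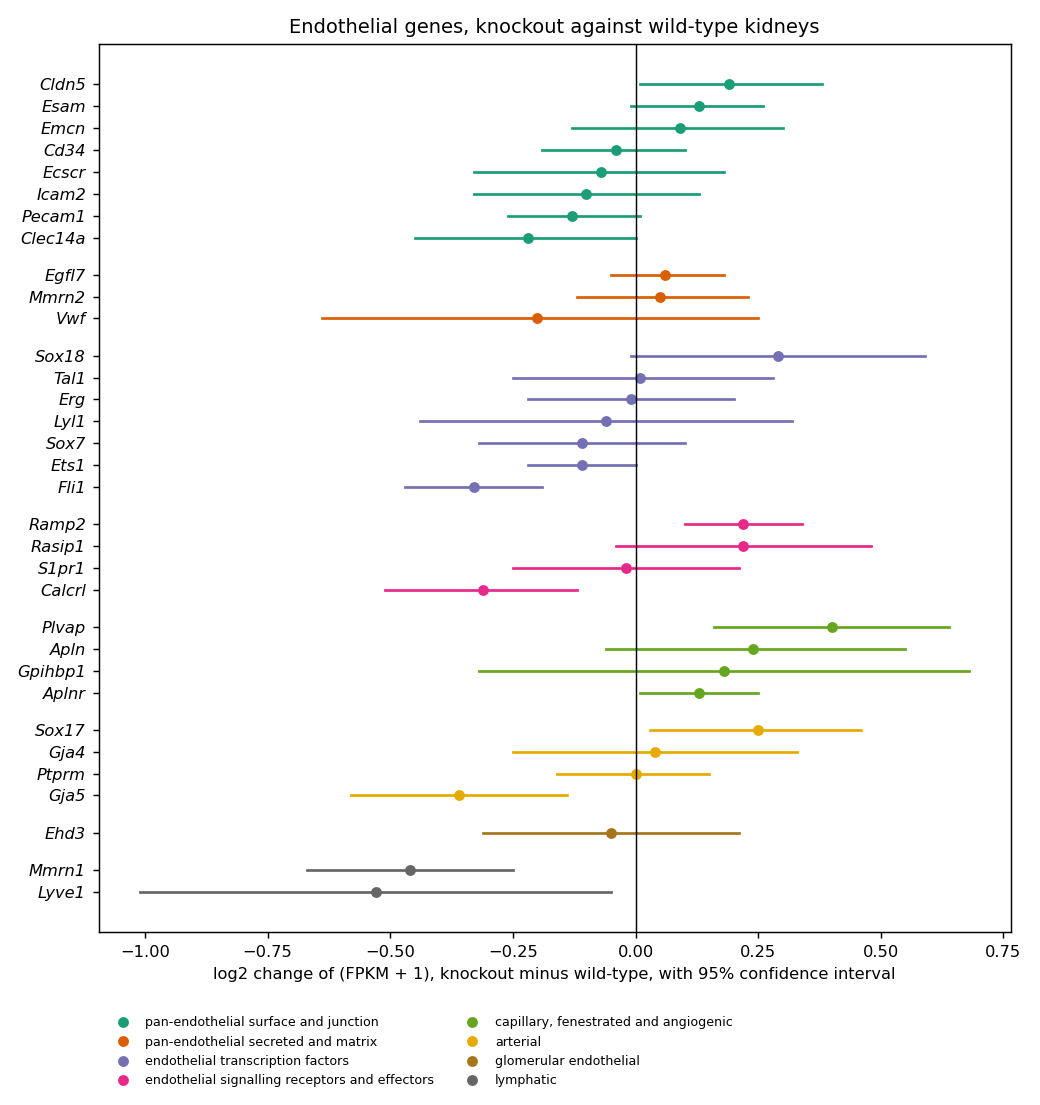
Log2 change of log2(FPKM + 1), knockout minus wild-type, for the 33 tested members, grouped by vessel class and role. Points are limma estimates and lines 95% confidence intervals (3 libraries per genotype, not adjusted for the number of genes). Most intervals cross 0, the 4 capillary genes lie right of 0, and Mmrn1 and Lyve1 lie furthest left.

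RNA for surface and junction proteins shared by most endothelium lay between 83.2% (Clec14a) and 114% (Cldn5) of wild type. Pecam1 (chromosome 11, 106654217 to 106750628, GRCm38, minus strand), an adhesion molecule of endothelial junctions, measured 31.7, 34.3 and 34.1 FPKM in knockout libraries, against 38.3, 36.0 and 35.1 FPKM in wild-type libraries. Every knockout library lay below every wild-type library, but by a small amount (log2 -0.13, 95% interval from -0.26 to 0.01, limma adjusted p = 0.343). Cldn5 (chromosome 16, 18776847 to 18778262), the tight junction claudin of endothelium whose start region is shown above, measured 38.5, 37.3 and 39.4 FPKM in knockout libraries, against 29.7, 36.6 and 34.4 FPKM in wild-type libraries. The groups did not overlap, and wild-type library 1 was the lowest (log2 0.19, 95% interval from 0.01 to 0.38, limma adjusted p = 0.295). Clec14a (chromosome 12, 58264720 to 58269290), a C-type lectin receptor of sprouting vessels, measured 5.91, 6.34 and 6.0 FPKM in knockout libraries, against 8.25, 6.39 and 7.29 FPKM in wild-type libraries. Its groups did not overlap either, with knockout library 2 and wild-type library 2 nearly touching (log2 -0.22, limma adjusted p = 0.313).

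The other surface genes gave log2 changes between -0.10 and 0.13. Emcn, encoding the mucin endomucin, averaged 57.2 ± 2.35 FPKM in knockout and 54.1 ± 7.03 FPKM in wild-type kidneys, and Cd34, a sialomucin shared with blood progenitors and some stroma, 39.9 ± 2.00 and 41.1 ± 2.25 FPKM (SD, n = 3 each). Esam, an adhesion molecule of tight junctions, averaged 18.8 ± 0.854 FPKM in knockout and 17.2 ± 0.112 FPKM in wild-type kidneys without overlap (log2 0.13, limma adjusted p = 0.329). Icam2, a ligand of leukocyte integrins, averaged 21.0 ± 2.40 FPKM in knockout and 22.5 ± 1.88 FPKM in wild-type kidneys. Ecscr, a regulator of endothelial chemotaxis, averaged 17.3 ± 2.74 and 18.1 ± 1.03 FPKM in the same order. Knockout library 1 was the lowest of all 6 libraries for Pecam1, Clec14a, Icam2, Cd34 and Ecscr. All 8 genes of this class had an interval within 0.5 of 0.

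Among genes for secreted and matrix proteins, Egfl7 had the highest RNA level of the whole set. Egfl7 (chromosome 2, 26580014 to 26593120), a secreted regulator of vessel tube formation whose gene hosts the endothelial microRNA Mir126a, measured 91.5, 95.8 and 93.8 FPKM in knockout libraries, against 91.7, 87.8 and 89.8 FPKM in wild-type libraries. The groups overlapped, and the 95% interval ran from -0.05 to 0.18 (log2 0.06, limma adjusted p = 0.577). Mmrn2, a matrix glycoprotein of the endothelium that binds Clec14a, averaged 9.18 ± 0.599 FPKM in knockout and 8.82 ± 0.409 FPKM in wild-type kidneys. Vwf, the platelet-binding von Willebrand factor of larger vessels, was near the low end with 1.40, 0.619 and 1.16 FPKM in knockout libraries, against 1.27, 0.956 and 1.86 FPKM in wild-type libraries. Knockout library 2 was the lowest and wild-type library 3 the highest, and the interval of its log2 change of -0.20 reached from -0.64 to 0.25. That change was -0.03 without knockout library 2 and -0.05 without wild-type library 3.

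Of the 7 transcription factors, Fli1 had the smallest p of all members. Fli1 (chromosome 9, 32422204 to 32542861, minus strand), an ETS factor of endothelium and blood cells, measured 12.4, 11.5 and 12.3 FPKM in knockout libraries, against 15.9, 15.4 and 15.1 FPKM in wild-type libraries. The groups were well separated, at 78.0% of wild type, yet the change missed the threshold (log2 -0.33, SE 0.06, limma adjusted p = 0.0633). Its adjusted p lay between 0.0546 and 0.240 over all alternatives. Ets1, which lies next to Fli1 on chromosome 9 (32636221 to 32757820) and is also active outside endothelium, averaged 38.2 ± 1.13 FPKM in knockout and 41.2 ± 0.481 FPKM in wild-type kidneys, again without overlap (SD, n = 3 each; log2 -0.11, limma adjusted p = 0.325). Erg, the ETS factor most restricted to endothelium, averaged 7.59 ± 0.211 and 7.68 ± 0.887 FPKM with overlapping groups. Its interval ran from -0.22 to 0.20, while that of Fli1 ran from -0.47 to -0.19.

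The SOX factors did not lie on 1 side. Sox18 (chromosome 2, 181669836 to 181671640) measured 5.61, 5.08 and 4.88 FPKM in knockout libraries, against 3.34, 3.96 and 5.01 FPKM in wild-type libraries. Wild-type library 3 lay inside the knockout range, and the interval ran from -0.01 to 0.59 (log2 0.29, limma adjusted p = 0.324, and log2 0.18 without wild-type library 1). Sox7 averaged 2.68 ± 0.157 FPKM in knockout and 2.96 ± 0.208 FPKM in wild-type kidneys (log2 -0.11). Tal1 and Lyl1, basic helix-loop-helix factors shared by endothelium and blood precursors, averaged 1.48 ± 0.230 and 2.16 ± 0.277 FPKM in knockout kidneys, against 1.46 ± 0.186 and 2.33 ± 0.686 FPKM in wild-type kidneys (SD, n = 3 each).

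Blood cells share several of these genes. The summed level of 8 megakaryocyte and platelet genes, which share Fli1, Tal1, Vwf and Mmrn1 with endothelium, was 17.2 to 20.8 FPKM in knockout and 18.8 to 19.3 FPKM in wild-type libraries. Of its 5 tested genes limma called 0, and 0 had an unadjusted p under 0.05. For 12 macrophage and leukocyte genes the sum was 53.0 to 60.1 FPKM in knockout and 58.3 to 64.7 FPKM in wild-type libraries. Of these 12 genes 9 lay below 0, limma called 0, and 0 had an unadjusted p under 0.05 (Ptprc log2 -0.20, Csf1r log2 -0.19). The part of these cells in the Fli1 values was not tested.

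Both chains of the adrenomedullin receptor are members, and they lay on opposite sides of 0. Calcrl is the receptor chain and Ramp2 the accessory protein that carries it to the cell surface and gives it affinity for adrenomedullin. Calcrl (chromosome 2, 84330626 to 84425411, minus strand) measured 20.9, 20.9 and 21.6 FPKM in knockout libraries, against 30.0, 25.9 and 24.0 FPKM in wild-type libraries. The knockout libraries were tightly grouped below the wild-type range, and wild-type library 1 was the highest (log2 -0.31, 95% interval from -0.51 to -0.12, limma adjusted p = 0.155). Ramp2 (chromosome 11, 101246028 to 101259546) measured 83.1, 90.8 and 87.2 FPKM in knockout libraries, against 73.8, 73.9 and 76.0 FPKM in wild-type libraries. Here every knockout library lay above the wild-type range (log2 0.22, 95% interval from 0.10 to 0.34, limma adjusted p = 0.137). Ramp2 shares exon sequence with Vps25 on the same strand, which could affect how fragments were assigned.

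The level of Calcrl relative to Ramp2 was 0.251, 0.231 and 0.248 in knockout libraries, against 0.407, 0.351 and 0.316 in wild-type libraries. This ratio was formed after the values were seen and is given without a test. S1pr1, a receptor for sphingosine-1-phosphate that stabilises junctions, averaged 6.69 ± 0.511 FPKM in knockout and 6.81 ± 0.781 FPKM in wild-type kidneys. Rasip1, a Ras-interacting protein needed for vessel lumens, averaged 9.30 ± 0.470 and 7.88 ± 1.26 FPKM (SD, n = 3 each; log2 0.22, limma adjusted p = 0.373, and log2 0.11 without wild-type library 1).

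**Figure D2:**
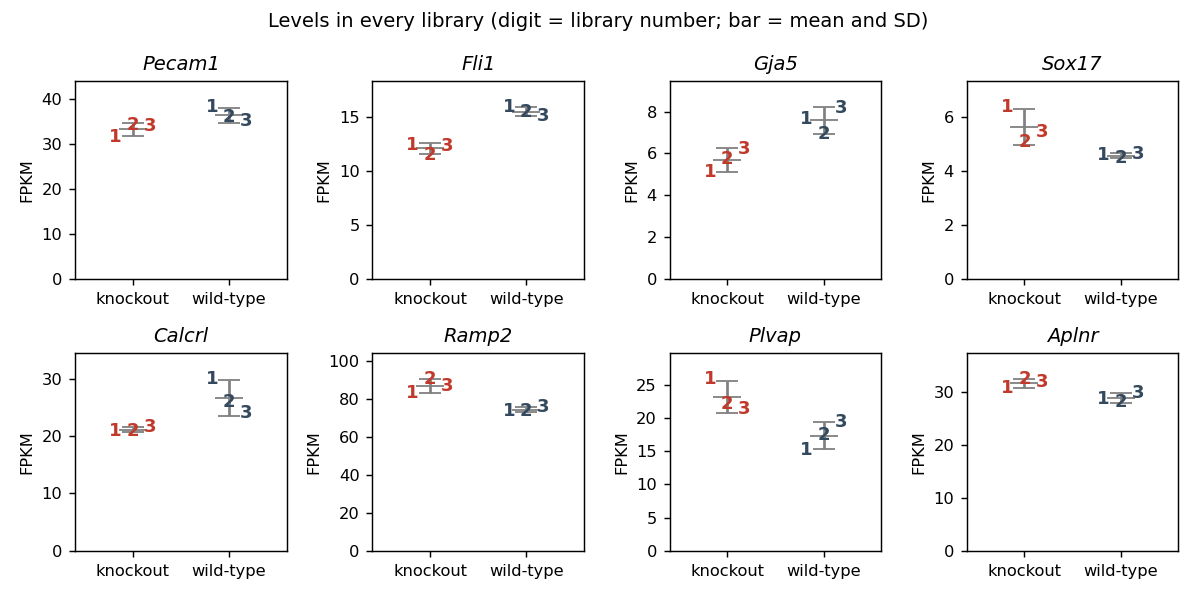
FPKM of 8 members in every library. Digits are library numbers and bars the mean and SD of the 3 libraries of each genotype. Pecam1, Fli1, Gja5 and Calcrl lie lower in all 3 knockout libraries, and Sox17, Ramp2, Plvap and Aplnr higher, without overlap between genotypes. The limma adjusted p was above 0.05 for all 8.

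All 4 members of the capillary, fenestrated and angiogenic class lay above 0, with a median log2 change of 0.21. The classes were drawn up with earlier results of these data known, and this shared direction was not tested. Limma called 0 of the 4, and 2 lay higher with an unadjusted p under 0.05, beside 9.14% of all genes. Plvap (chromosome 8, 71497765 to 71511752), which forms the diaphragms of fenestrated capillaries, measured 25.9, 22.1 and 21.4 FPKM in knockout libraries, against 15.2, 17.4 and 19.3 FPKM in wild-type libraries. It had the largest positive change of the members, at 133% of wild type and without overlap (log2 0.40, SE 0.10, 95% interval from 0.16 to 0.64, limma adjusted p = 0.153). Knockout library 1 was the highest and wild-type library 1 the lowest. The limma adjusted p was 0.0865 without wild-type library 3 and between 0.259 and 0.325 without any other single library. Aplnr (chromosome 2, 85136225 to 85139923), the apelin receptor of veins and sprouting capillaries, measured 30.8, 32.5 and 31.9 FPKM in knockout libraries, against 28.7, 28.2 and 29.9 FPKM in wild-type libraries. The groups lay close without overlapping (log2 0.13, limma adjusted p = 0.283).

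Its ligand Apln, made by endothelial tip cells, averaged 4.39 ± 0.245 FPKM in knockout and 3.59 ± 0.768 FPKM in wild-type kidneys, where wild-type library 3 reached into the knockout range (SD, n = 3 each; log2 0.24, limma adjusted p = 0.400, and log2 0.11 without wild-type library 1). Gpihbp1, which anchors lipoprotein lipase on capillaries, measured 10.8, 11.8 and 10.6 FPKM in knockout libraries, against 13.9, 7.86 and 8.09 FPKM in wild-type libraries. Wild-type library 1 lay above all other libraries, and the other wild-type libraries below all knockout libraries. Its log2 change was 0.18 (limma adjusted p = 0.702) with all libraries and 0.43 (limma adjusted p = 0.088) without wild-type library 1. Without wild-type library 2 it was 0.05, and without wild-type library 3 it was 0.07.

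The arterial genes did not move as a group. Gja5 (chromosome 3, 96904693 to 97077416), a gap junction connexin of arterial endothelium and of renin cells, measured 5.10, 5.73 and 6.22 FPKM in knockout libraries, against 7.64, 6.91 and 8.19 FPKM in wild-type libraries. All knockout libraries lay below the wild-type range, at 75.0% of wild type (log2 -0.36, 95% interval from -0.58 to -0.14, limma adjusted p = 0.162). Ren1, the renin gene of cells that share this connexin, averaged 10.6 ± 2.07 FPKM in knockout and 49.1 ± 16.8 FPKM in wild-type kidneys (SD, n = 3 each). Its log2 change was -2.07 (limma adjusted p = 0.0886). The limma adjusted p of Ren1 was 0.0218 without wild-type library 3 and between 0.123 and 0.315 without any other single library. The part of renin cells in the Gja5 values was not tested. Gja5 also overlaps exons of Gpr89 on the opposite strand. Its partner connexin Gja4 averaged 6.49 ± 0.368 FPKM in knockout and 6.35 ± 1.28 FPKM in wild-type kidneys, with wild-type library 3 the highest (log2 0.04).

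Sox17 (chromosome 1, 4490931 to 4497354, minus strand), the SOX factor enriched in arteries, lay on the other side. It measured 6.39, 5.08 and 5.46 FPKM in knockout libraries, against 4.62, 4.48 and 4.65 FPKM in wild-type libraries, which were tightly grouped below the knockout range (log2 0.25, 95% interval from 0.03 to 0.46, limma adjusted p = 0.267). Ptprm, a receptor phosphatase found on arterial endothelium, averaged 99.9% of wild type in knockout kidneys, with libraries between 16.8 and 19.3 FPKM in knockout and between 17.6 and 18.5 FPKM in wild-type kidneys (95% interval of the log2 change from -0.16 to 0.15). Ehd3 (chromosome 17, 73804134 to 73832094), a membrane trafficking protein of glomerular endothelium, was the single glomerular member. It measured 5.26, 6.84 and 5.98 FPKM in knockout libraries, against 6.29, 6.97 and 5.61 FPKM in wild-type libraries. These overlap, and the interval ran from -0.31 to 0.21 (log2 -0.05, limma adjusted p = 0.842). Genes of podocytes, the glomerular neighbours of these cells (6 listed), summed to 93.6 to 107 FPKM in knockout and 81.2 to 91.9 FPKM in wild-type libraries.

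Mmrn1 and Lyve1, the 2 tested lymphatic members, had the lowest log2 changes of the set with all libraries in the fit. Mmrn1 (chromosome 6, 60924976 to 60989378), a secreted multimerin of lymphatic endothelium and platelets, measured 3.86, 3.83 and 4.0 FPKM in knockout libraries, against 5.24, 5.68 and 6.39 FPKM in wild-type libraries. The knockout values lay within a narrow range below all wild-type values, at 67.6% of wild type (log2 -0.46, SE 0.09, 95% interval from -0.67 to -0.25, limma adjusted p = 0.0782). Without wild-type library 3 the log2 change was -0.40 (limma adjusted p = 0.0921). Lyve1 (chromosome 7, 110850607 to 110863239, minus strand), a hyaluronan receptor of lymphatic vessels and some macrophages, measured 2.01, 1.49 and 1.48 FPKM in knockout libraries, against 2.19, 2.29 and 4.32 FPKM in wild-type libraries. The groups did not overlap, but wild-type library 3 was far above the rest (log2 -0.53, 95% interval from -1.01 to -0.05, limma adjusted p = 0.276). Without that library the log2 change was -0.29 (limma adjusted p = 0.260).

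Prox1 (chromosome 1, 190118035 to 190170714, minus strand), the master regulator of lymphatic identity, measured 0.426, 0.274 and 0.456 FPKM in knockout libraries, against 0.387, 0.298 and 1.05 FPKM in wild-type libraries. Apart from wild-type library 3, the genotypes overlapped. When fitted without the filter on low values its log2 change was -0.16 (limma adjusted p = 0.721). Wild-type library 3, with the nerve and chromaffin signal given above, was the highest library for all 3 lymphatic members, and the part of that tissue in their values was not tested.

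**Figure D3:**
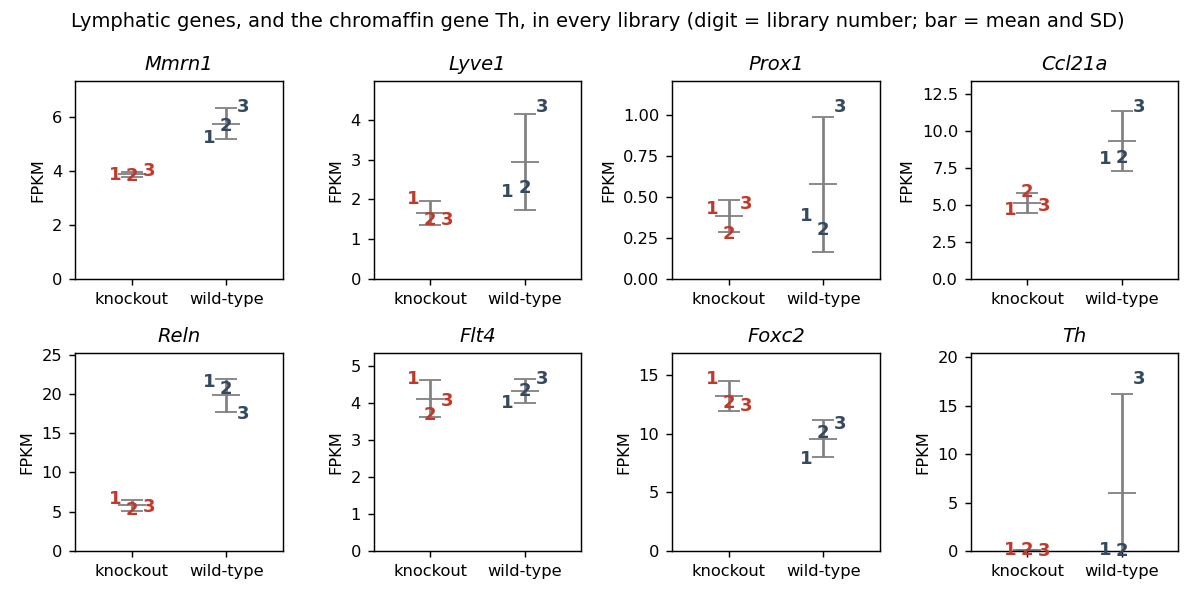
FPKM of the 3 lymphatic members (Mmrn1, Lyve1, Prox1), of 4 further lymphatic genes and of the chromaffin gene Th in every library. Digits are library numbers and bars the mean and SD of the 3 libraries of each genotype. Mmrn1, Lyve1, Ccl21a and Reln lie lower in all 3 knockout libraries, Foxc2 higher, and Flt4 overlaps. Wild-type library 3 is the highest library for Mmrn1, Lyve1, Prox1, Ccl21a, Flt4 and Th.

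Further lymphatic genes lay on both sides of 0. Of 7 tested, limma called 1 lower and 0 higher, beside 0.604% and 0.130% of all genes. The unadjusted p was under 0.05 for 3 that lay lower and 1 that lay higher, beside 6.94% and 9.14% of all genes. The called gene was Reln, encoding the secreted glycoprotein reelin, which is also made outside lymphatics. It measured 6.56, 5.22 and 5.66 FPKM in knockout libraries, against 21.5, 20.6 and 17.5 FPKM in wild-type libraries (log2 -1.61, limma adjusted p = 0.00138). Ccl21a, a chemokine of lymphatic endothelium, averaged 5.14 ± 0.661 FPKM in knockout and 9.30 ± 2.02 FPKM in wild-type kidneys (SD, n = 3 each; log2 -0.73, limma adjusted p = 0.0861). Without wild-type library 3 its log2 change was -0.58 (limma adjusted p = 0.0699). Itga9, an integrin subunit of lymphatic valves, had a log2 change of -0.36 (limma adjusted p = 0.0551). Its limma adjusted p was 0.0455 without wild-type library 1 and between 0.0836 and 0.208 without any other single library. Foxc2, a valve transcription factor also expressed in nephron and stroma, had a log2 change of 0.43 (limma adjusted p = 0.176). Flt4, the receptor for lymphatic growth factor VEGF-C, gave -0.06 with overlapping groups.

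Further pan-endothelial and arterial genes gave no call. Of 20 other pan-endothelial genes limma called 0 higher and 0 lower. The unadjusted p was under 0.05 for 2 of the 20 that lay higher and 4 that lay lower, beside 9.14% and 6.94% of all genes. The median log2 change was 0.00. Adgrl4, an adhesion receptor of angiogenic vessels, measured 6.22 ± 0.332 FPKM in knockout and 8.22 ± 1.01 FPKM in wild-type kidneys (log2 -0.35), and Robo4, a guidance receptor that stabilises vessels, 7.48 ± 1.12 and 5.68 ± 0.108 FPKM (SD, n = 3 each; log2 0.34). Cdh5, the endothelial cadherin, averaged 17.6 ± 0.888 and 17.1 ± 1.88 FPKM. Among 12 other arterial genes limma called 0. The unadjusted p was under 0.05 for 1 of the 12 that lay higher and 3 that lay lower, beside the same shares of all genes. Hey2, a Notch effector of arterial fate that other kidney cells also express, measured 2.87 ± 0.493 FPKM in knockout and 4.39 ± 0.210 FPKM in wild-type kidneys (log2 -0.48, limma adjusted p = 0.118). Nrp1, a VEGF and semaphorin co-receptor also made by stroma, measured 58.0 ± 0.606 and 67.7 ± 1.52 FPKM (log2 -0.22, limma adjusted p = 0.0975).

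The further list of 7 tip cell and angiogenic genes had 3 above and 4 below 0, with a median log2 change of -0.01. A limma unadjusted p under 0.05 was found for 2 that lay lower and 0 that lay higher, beside 6.94% and 9.14% of all genes. Limma called 1 lower and 0 higher, beside 0.604% and 0.130% of all genes. The called gene was Angpt2, an antagonist ligand of the Tie2 receptor that both endothelium and mural cells can make. It fell to 9.50, 9.44 and 8.87 FPKM in knockout libraries, against 14.4, 14.0 and 12.7 FPKM in wild-type libraries (log2 -0.52, SE 0.07, limma adjusted p = 0.0237). The call was lost without any 1 library but wild-type library 3 (adjusted p between 0.0597 and 0.127). Igfbp3, an IGF-binding protein of tip cells and of stroma, had a log2 change of -0.38 (limma adjusted p = 0.104). Of 5 other glomerular endothelial genes limma called 0 and 4 lay above 0, among them Tbx3 (log2 0.37, limma adjusted p = 0.124) and Sema5a (log2 0.21, limma adjusted p = 0.204), both also expressed outside endothelium. For comparison, the 10 pericyte and smooth muscle genes, which mark cells of the lineage targeted by Cre, summed to 133 to 139 FPKM in knockout and 167 to 178 FPKM in wild-type libraries. These genes did not all fall, as 6 lay below and 4 above 0, with log2 changes between -0.86 and 0.28. The limma unadjusted p was under 0.05 for 4 that lay lower and 1 that lay higher, beside 6.94% and 9.14% of all genes. Limma called 2 of the 10 lower and 0 higher, beside 0.604% and 0.130% of all genes. The 2 were Acta2 (log2 -0.84, limma adjusted p = 0.023) and Tagln (log2 -0.86, limma adjusted p = 0.0402). Acta2 held without knockout library 3 but not without any other single library (limma adjusted p between 0.0543 and 0.126), and Tagln not without any (0.0603 to 0.150).

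**Figure D4:**
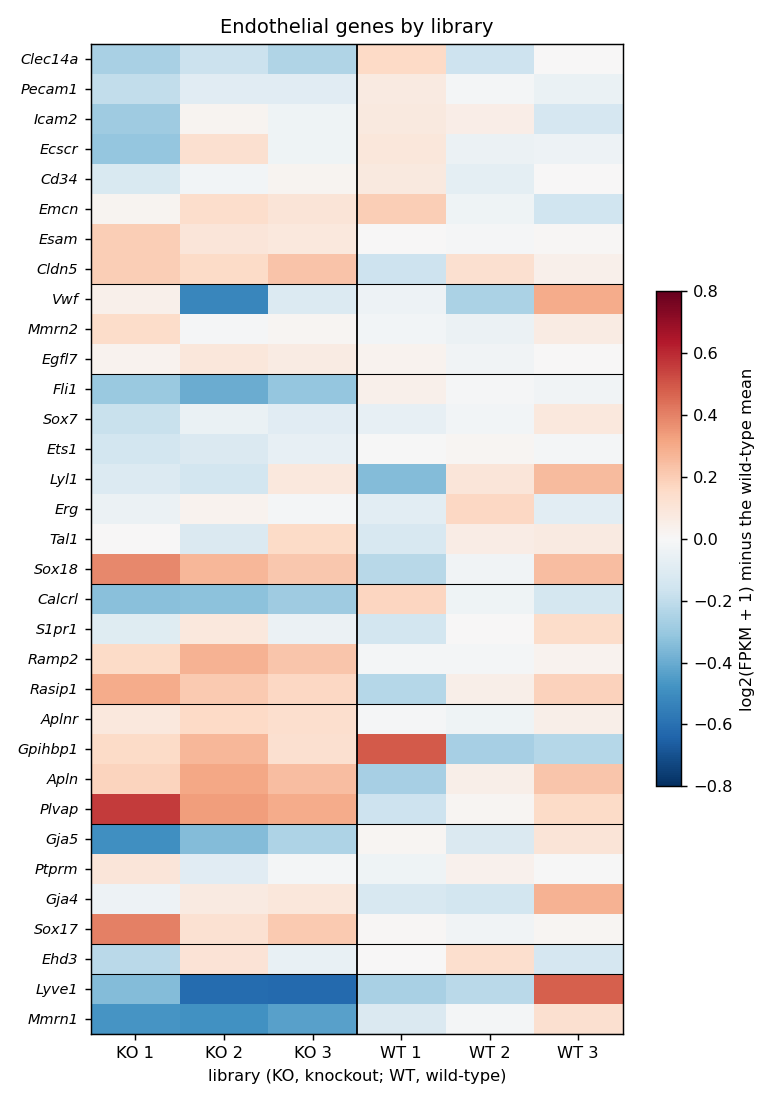
Log2(FPKM + 1) of the 33 tested members in each library, minus the mean of the 3 wild-type libraries, with lines between the 8 classes. Red is above and blue below the wild-type mean. Mmrn1, Lyve1, Fli1, Calcrl and Gja5 are blue and Plvap, Ramp2 and Sox17 red in all 3 knockout libraries, and wild-type libraries 1 and 3 carry the strongest deviations on the wild-type side.

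The highest and lowest values were spread unevenly over the libraries. Wild-type library 1 was the highest library for 8 of the 33 tested members and the lowest for 10, and knockout library 1 the highest for 7 and the lowest for 10. Wild-type library 3 was the highest for 8 and the lowest for 1. The median deviation of the members from their wild-type mean was -0.04, 0.03 and 0.01 in knockout libraries 1 to 3, against -0.02, -0.02 and 0.03 in wild-type libraries 1 to 3. The 2 genotypes overlap in this measure.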

How the data were processed

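RNA from whole kidneys was sequenced in 3 knockout and 3 wild-type libraries. The tools were bcl2fastq 2.17.1.14 for demultiplexing and Salmon for quantification on GRCm38 (mm10), per the submitters' processing notes. The authors deposited FPKM values in 1 table, and its annotation release, strandedness and filters are not given there. The values already carried a common median scaling. A symbol was found for 24469 of 24749 identifiers (GENCODE M21 names). Exons of 8 members overlap a gene on the opposite strand and those of 4 a gene on the same strand.

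Genes averaging 0.5 FPKM or more were tested as log2(FPKM + 1), pseudocount 1, with limma 3.58.1 in R 4.3.3 (genotype only, trend and robust options, Benjamini-Hochberg adjustment over 16899 genes, calls under 0.05). This scale understates changes of low genes. Depth was approximated from the value of 1 fragment on transcripts of at least 2 kb. The fit was tested on simulated data with known changes.

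Members and lists were chosen with earlier results of these data known. All members were named; values in every library were given for Pecam1 and the 2 of each class with the smallest p, and from other lists called genes or the 2 with the smallest p. Not every gene so chosen is reported here. Gpihbp1, Prox1, Ren1, Cdh5, Ccl21a, Itga9, Foxc2, Flt4, Igfbp3, Slc12a1 and Umod were given in addition. Alternatives were other scalings, pseudocount 0.1, no filter, other moderation, a replicate block and leaving out each library.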

Additional observations from a re-analysis of the deposited data

How the results depend on the processing

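Under all 13 alternatives limma called 0 of the members, and the lowest adjusted p of any member under any setting was 0.0546. The median log2 change of the members was -0.011 and lay between -0.029 and 0.019 when 1 library was left out. Of 429 member values under the alternatives, 414 kept their direction and 15 changed sign, in 8 members whose log2 change was at most 0.07 either way. All 15 arose when 1 library was left out. The sign changes by library were in Erg (-0.05 to 0.07), Ehd3 (-0.14 to 0.03), Ecscr (-0.17 to 0.05), Tal1 (-0.06 to 0.08), Lyl1 (-0.23 to 0.07), Gja4 (-0.03 to 0.18), S1pr1 (-0.09 to 0.05) and Ptprm (-0.05 to 0.04). Star (0.00) lay at -0.01 with equal FPKM sums and between -0.04 and 0.06 with 1 library left out, and Th (-1.36) between -2.05 and 0.04, the highest without wild-type library 3. The count of 124 genes called over all genes lay between 52 and 147 when 1 library was left out. It was 52 without wild-type library 2, 66, 57 and 58 without knockout library 1, 2 and 3, and 147 without wild-type library 3, where the share of lower calls was 65.3% against 82.3%. With a replicate block it was 32. The labels do not say whether same-numbered libraries were paired. Deviations of same-numbered libraries correlated at 0.0238, -0.0422 and 0.0504, and those of differently numbered libraries at -0.0926 to 0.081. With 3 libraries per genotype these values cannot decide whether a litter or batch was shared. The block left 0 members called. Wwtr1, Angpt2, Acta2 and Tagln lost their calls under the block (adjusted p = 0.108, 0.109, 0.127 and 0.231). Depth limits the members at low levels, among them Prox1, Vwf, Tal1, Lyl1 and Lyve1.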

Other observations

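Of 5 venous genes 3 were tested, and limma called 0, with an unadjusted p under 0.05 for 1, beside 16.1% of all genes. Ephb4, the receptor that marks veins, measured 35.1, 31.2 and 31.4 FPKM in knockout libraries, against 19.7, 27.8 and 28.7 FPKM in wild-type libraries (log2 0.36, limma adjusted p = 0.293). Wild-type library 1 was the lowest, and without it the log2 change was 0.20. Nr2f2, the nuclear receptor of venous fate and of stroma, had a log2 change of -0.11 (limma adjusted p = 0.400). Selp and Ackr1, adhesion and chemokine-binding proteins of venules, were under the filter.

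Red blood cell genes, which fill the vessels, summed to 5870 to 8880 FPKM in knockout and 5150 to 8470 FPKM in wild-type libraries, and limma called 0 of 8, with 0 at an unadjusted p under 0.05. Of 6 genes of the loop of Henle, a segment known to express Prox1 in mouse, limma called 0. The unadjusted p was under 0.05 for 2 that lay higher (Pou3f3 log2 0.16, Irx1 log2 0.31), beside 9.14% of all genes. Slc12a1 and Umod, the transporter and secreted protein of this segment, had log2 changes of -0.50 and -0.24 (limma adjusted p = 0.525 and 0.502). Their groups overlapped, with wild-type library 3 the lowest and wild-type library 1 the highest of all libraries for both. Without wild-type library 1 the changes were -0.21 and -0.14. Of 6 podocyte genes limma called 0, with Wt1 at a log2 change of 0.30. Liver genes (5 tested, Serpina1a log2 0.22, Alb log2 0.31), adrenal cortex genes (2 tested, Mc2r log2 0.32, Star log2 0.00) and nerve and chromaffin genes (5 tested, Stmn2 log2 -1.21, Th log2 -1.36, and -0.35 and 0.04 without wild-type library 3) had 0 calls by limma, and Mc2r alone had an unadjusted p under 0.05.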
